A study of Mus musculus with 13 samples.

Results

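The genes described here are 9 genes listed under the immature single positive (ISP) and CD4+CD8+ double positive (DP) stages of thymocyte development: Cd4, Cd8a, Cd8b1, Arpp21, Themis, Satb1, Zbtb7b, Runx3 and Cd24a. They are a fixed list by name, taken from the 47937 genes of the count table by Ensembl identifier without its version, and all 9 were found. RNA was sequenced from thymocytes sorted as CD4-CD8- double negative (DN) cells at the stages DN3 and DN4, in 13 libraries from 7 mice of the C57BL/6 strain, 6 weeks old by the series' design text. The WT;Lck-Cre+ groups were DN3 (3 mice, WT05, WT46 and WT48) and DN4 (4 mice, WT05, WT40, WT46 and WT48). The other groups were Opa1fl/fl;Lck-Cre+ DN3 (3 mice, KO45, KO49 and KO51) and Opa1fl/fl;Lck-Cre+ DN4 (3 mice, KO45, KO49 and KO51). The genotypes are called Wt and KO here. Both carry the Lck-Cre transgene, which expresses Cre recombinase from the Lck promoter in thymocytes from the DN stages onward, so the Wt mice are controls for Cre but not for its absence. The labels name no treatment. In the KO mice Cre deletes floxed sequence of Opa1, which encodes a dynamin-related GTPase of the inner mitochondrial membrane.

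A thymocyte that has rearranged its T cell receptor β chain passes β-selection at DN3, proliferates as DN4, and then switches on the CD8 and CD4 co-receptors, in the mouse usually CD8 first in the ISP stage, before it becomes DP. CD4 and CD8 bind MHC class II and class I and bring the kinase Lck to the T cell receptor. RUNX factors act on the silencer of Cd4 and the enhancers of the Cd8 locus. Among the RUNX factors Runx3 is known for the CD8+ lineage, while Zbtb7b, which encodes ThPOK, is known for commitment to the CD4+ lineage. Satb1 organizes chromatin in thymocytes, Themis encodes an adaptor of T cell receptor signalling that is abundant in DP cells, Arpp21 encodes an RNA-binding protein whose gene hosts miR-128-2, and Cd24a encodes the heat stable antigen of immature thymocytes. A DN gate removes cells with CD4 or CD8 protein on their surface, so the values below are RNA of the co-receptors in cells that the labels call DN. In its flow cytometry the study defined the DN subsets among lineage-negative DN cells, but the gates of the sort for RNA, and whether they excluded lineage-positive cells, are not given in the sources used here. The name of the list does not hold for every member in these libraries. From DN3 to DN4 Cd24a fell in both genotypes and Themis passed the test in neither. Arpp21 was lower in DN4 in 6 of 6 mice with both stages and passed in Wt mice. Over the DN4 libraries Zbtb7b and Runx3 did not go with the co-receptor genes.

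The sequences upstream of 4 of the genes are shown first, because of their levels over the DN4 libraries: Satb1 and Themis went up and down with Cd8a, by which the libraries are ordered below, and Runx3 went the other way. Each is the 250 bases before a RefSeq start on GRCm38.p6, written 5′ to 3′ on the strand of the gene. Capitals mark matches, on either strand, to 4 short motifs: TGTGGN for RUNX factors, CAGNTG for E proteins (the E-box), CTTTGN for TCF factors and AGATAA for GATA factors. The windows lie at chr6:71373177-71373426 (plus strand), chr17:51833291-51833540 (minus strand), chr10:28668110-28668359 (plus strand) and chr4:135120395-135120644 (plus strand).
Cd8a: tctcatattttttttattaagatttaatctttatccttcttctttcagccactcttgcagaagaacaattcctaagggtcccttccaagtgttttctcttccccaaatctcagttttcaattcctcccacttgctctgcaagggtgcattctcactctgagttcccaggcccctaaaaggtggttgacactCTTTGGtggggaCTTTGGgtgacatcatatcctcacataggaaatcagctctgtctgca
Satb1: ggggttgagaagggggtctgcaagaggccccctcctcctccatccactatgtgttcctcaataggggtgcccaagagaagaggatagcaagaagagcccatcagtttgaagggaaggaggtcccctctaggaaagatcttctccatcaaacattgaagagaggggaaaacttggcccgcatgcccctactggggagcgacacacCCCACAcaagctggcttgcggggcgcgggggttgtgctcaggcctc
Themis: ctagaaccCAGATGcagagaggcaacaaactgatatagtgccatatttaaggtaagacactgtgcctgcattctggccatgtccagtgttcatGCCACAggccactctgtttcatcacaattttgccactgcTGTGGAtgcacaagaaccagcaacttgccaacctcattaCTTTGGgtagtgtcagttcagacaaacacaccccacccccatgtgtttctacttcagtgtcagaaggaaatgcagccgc
Runx3: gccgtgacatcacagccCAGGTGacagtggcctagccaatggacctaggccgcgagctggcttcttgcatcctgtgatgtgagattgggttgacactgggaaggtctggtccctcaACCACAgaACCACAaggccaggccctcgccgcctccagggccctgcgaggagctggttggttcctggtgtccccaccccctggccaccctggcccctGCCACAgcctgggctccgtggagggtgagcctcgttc

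The Cd8a window held 2 matches to CTTTGN, 59 and 47 bases before the start, and none to the other 3 motifs. The Satb1 window held 1 match to TGTGGN, 46 bases before the start, as CCCACA on the strand shown. The Themis window held 2 matches to TGTGGN and 1 each to CAGNTG and CTTTGN, and the Runx3 window 3 to TGTGGN and 1 to CAGNTG. No 2 of these matches overlapped. Of all 32851 windows of the same length in the table, 49.2% held TGTGGN, 44.8% CAGNTG, 48.4% CTTTGN and 9.99% AGATAA, so a match to any of the first 3 is found near about every other start. Zbtb7b has 2 starts in the table, of which the one nearest the annotated 5′ end of the gene had 1 match to CAGNTG, and Arpp21 has 9, of which the one nearest that end had 1 match each to TGTGGN and AGATAA. A match is a description of the letters only.

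The libraries held 5926848 to 14148661 counts on genes. The DN3 library of WT05 was the smallest and stood apart, where 11 genes akin to ribosomal RNA, picked once the counts had been looked at, took 41.4% of the counts, against 0.442% to 1.75% in the other 12. Levels are given as CPM, the count in each 1000000 counts of library sizes scaled by TMM, which gave this library a factor of 0.578 and the others 0.995 to 1.10. Over the whole gene Opa1 had 76.9 to 93.7 CPM in the KO and 85.0 to 112 CPM in the Wt libraries. Counts over the whole gene did not separate the genotypes and do not resolve exons, and the genotypes are those of the labels. Il2ra, which encodes the CD25 protein that is lost between DN3 and DN4, was at 725 to 1335 CPM in DN3 and 9.77 to 24.1 CPM in DN4 libraries. WT40 and WT46 were male by their Xist and Y-linked counts, and the other 5 mice, all KO mice among them, female, so genotype and sex were not balanced. In DN4 libraries markers of B cells were also present, and their level is given beside the results that it moved with.

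From DN3 to DN4 the RNA of the 3 co-receptor genes rose in both genotypes, by log2 fold changes of 3.69 to 4.36 in Wt and 3.74 to 5.22 in KO mice, and Zbtb7b, nearly absent from the DN3 libraries, had counts in all DN4 libraries. Cd24a fell in both. Arpp21 was lower and Satb1 higher in DN4 in 6 of 6 mice with both stages. Arpp21 passed the test in Wt and Satb1 in KO mice, while Themis passed in neither genotype. With a block for the mouse Arpp21 also passed in KO and Runx3 in Wt mice, and the Wt call of Cd24a was lost. In Wt mice 6 of the 9 genes passed an adjusted p of 0.05, 4 of them higher and 2 lower in DN4, where 22.9% of the 12691 genes tested passed (13.4% higher, 9.43% lower). In KO mice 6 of 9 passed, 5 higher and 1 lower, against 18.6% of 12580 genes (11.2% higher, 7.34% lower). Zbtb7b is 1 of the higher calls in both genotypes and passed the filter on low counts only through DN4, where it was high. Without it 5 of 8 genes passed in each genotype, 3 higher and 2 lower in Wt and 4 higher and 1 lower in KO mice. The test was the quasi-likelihood test of edgeR, and p-values were adjusted by Benjamini-Hochberg over all genes tested. The CPM of the groups did not overlap between the stages for 7 of the 9 genes in Wt mice, where this was so for 34.9% of the genes tested, and for 6 of 9 in KO mice, against 38.7%. Without Zbtb7b these counts were 6 of 8 and 5 of 8. The median log2 fold change of those 8 genes was 0.64 in Wt and 0.75 in KO mice, beside -0.03 and -0.02 over all genes tested. With Zbtb7b it was 0.67 and 1.14.

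**Figure D1:**
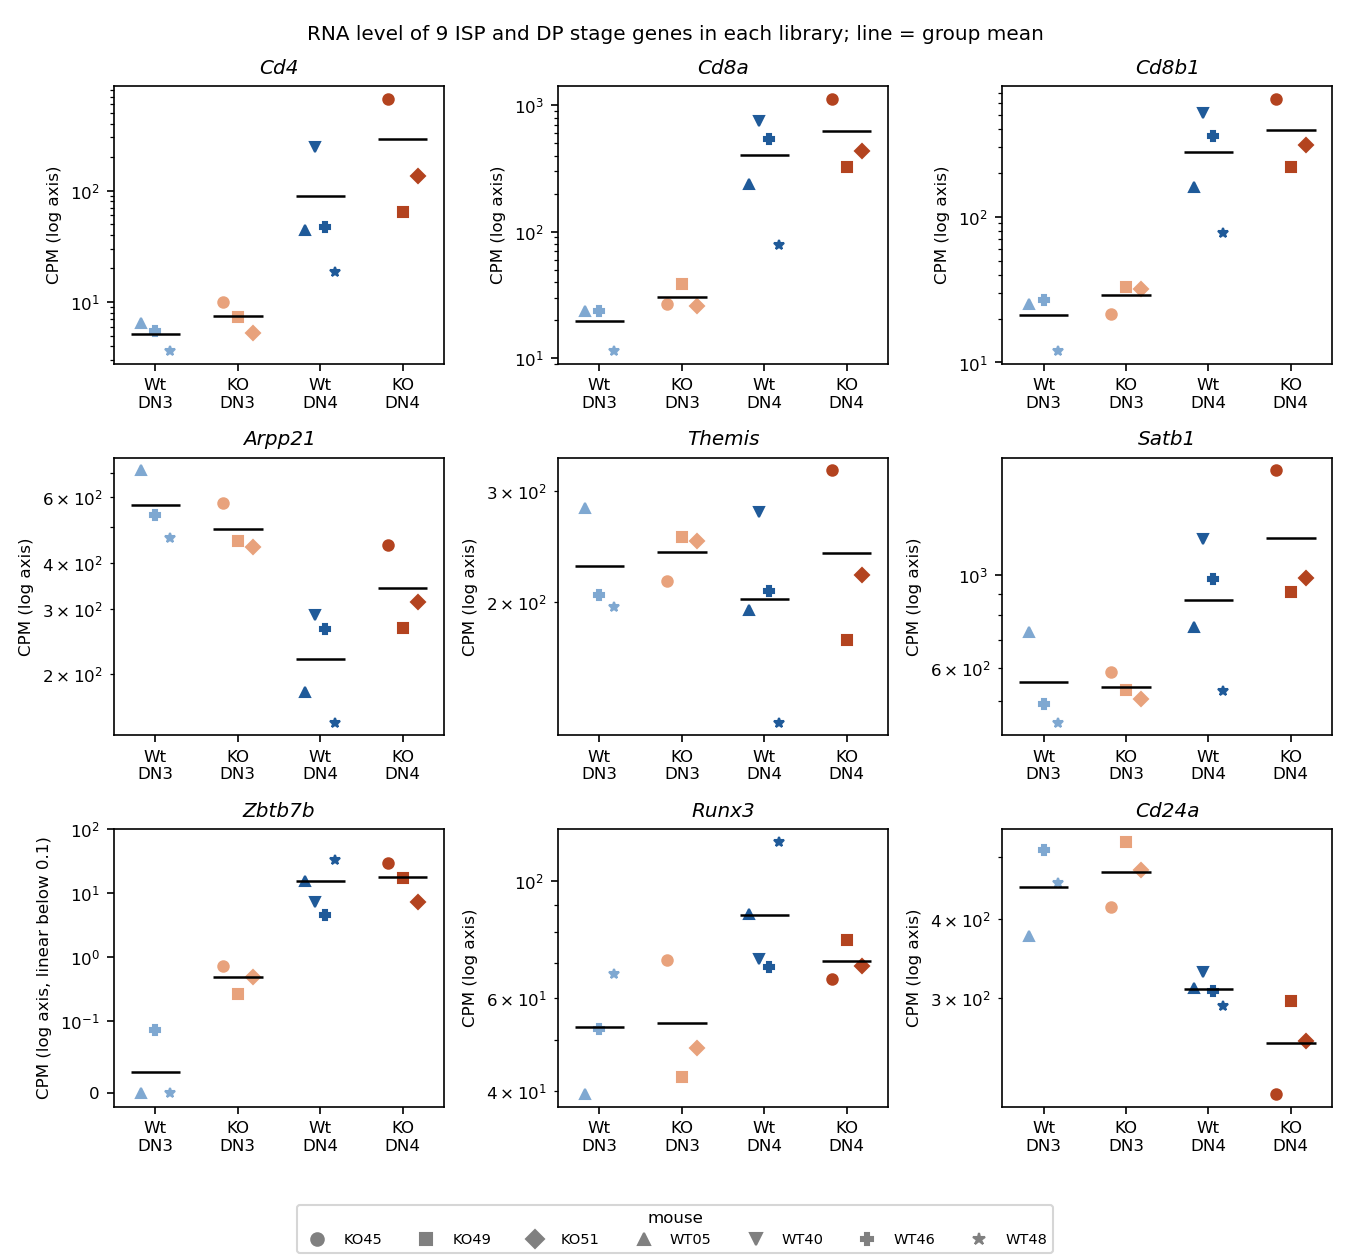
CPM of each of the 9 genes in the 13 libraries, on log axes (linear below 0.1 CPM for Zbtb7b), by group, with a symbol per mouse and a line at the group mean. Cd4, Cd8a, Cd8b1 and Zbtb7b lie higher in all 7 DN4 than in all 6 DN3 libraries, Cd24a lies lower, and the DN4 libraries of KO45 and WT40 are the highest of their groups for Cd4, Cd8a and Cd8b1.

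Cd4 (ENSMUSG00000023274.14, chromosome 6 from 124864692 to 124888221 on the minus strand of GRCm38) encodes the co-receptor for MHC class II. In DN3 libraries it had 6.42, 5.48 and 3.63 CPM in WT05, WT46 and WT48 and 9.97, 7.31 and 5.29 CPM in KO45, KO49 and KO51. In DN4 libraries it had 44.2, 248.6, 47.0 and 18.5 CPM in WT05, WT40, WT46 and WT48 and 670.2, 64.1 and 136 CPM in KO45, KO49 and KO51. Every DN4 library was above every DN3 library, but the DN4 libraries lay far from each other, the highest, KO45, being 36.2-fold above the lowest, WT48. The group means in Wt mice were 5.18 ± 1.42 CPM (SD, n = 3) and 89.6 ± 107 CPM (SD, n = 4), a log2 difference of 4.13 with a standard error of 0.956 and an adjusted p of 0.0161 in edgeR's quasi-likelihood test. In KO mice the test gave a log2 difference of 5.22 with a standard error of 0.900 and an adjusted p of 0.00662 in edgeR. The Wt call was lost without the DN3 library of WT46 or of WT48 (adjusted p = 0.0602 and 0.0661 in edgeR), with log2 fold changes of 4.22 and 3.91. It was also lost with limma-voom (adjusted p = 0.101, log2 fold change 3.49). The size of the Wt change fell to 2.83 without the DN4 library of WT40, to 2.74 with a block for the mouse, which leaves WT40 out too, and to 2.68 without the male mice. That of the KO change fell to 3.67 without the DN4 library of KO45 and to 4.57 with limma-voom.

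Cd8a and Cd8b1, side by side on chromosome 6, encode the α and β chains of CD8, the co-receptor for MHC class I. Cd8a (ENSMUSG00000053977.13, chromosome 6 from 71373427 to 71379173 on the plus strand) had 23.6, 23.5 and 11.3 CPM in the Wt and 26.9, 38.4 and 25.8 CPM in the KO DN3 libraries, in the order of mice given above. In DN4 it had 237, 756, 545 and 78.5 CPM in the Wt and 1131, 325 and 434 CPM in the KO libraries. The stages did not overlap, and WT48 was the lowest and KO45 the highest DN4 library, as for Cd4. The change was a log2 difference of 4.36 with a standard error of 0.781 and an adjusted p of 0.00537 in Wt and a log2 difference of 4.35 with a standard error of 0.485 and an adjusted p of 0.00121 in KO mice by edgeR's quasi-likelihood test. The log2 fold change was 3.56 with a block for the mouse and 3.19 without the male mice in Wt, and 3.6 without the DN4 library of KO45 in KO mice, all with the call kept.

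Cd8b1 (ENSMUSG00000053044.8, chromosome 6 from 71322788 to 71337494 on the plus strand) had 25.1, 26.8 and 12.0 CPM in the Wt and 21.5, 33.1 and 31.8 CPM in the KO DN3 libraries. In DN4 it had 161, 517, 355 and 77.4 CPM in the Wt and 644, 218 and 311 CPM in the KO libraries. It ranked the 7 DN4 libraries in the same order as Cd8a. It rose, with a log2 difference of 3.69 with a standard error of 0.677 and an adjusted p of 0.00594 in Wt and a log2 difference of 3.74 with a standard error of 0.404 and an adjusted p of 0.00106 in KO mice in edgeR's quasi-likelihood test. As for Cd8a, its log2 fold change was smaller with a block for the mouse (3.03) and without the male mice (2.70) in Wt, and without the DN4 library of KO45 (3.15) in KO mice. Of its transcript stretches of 50 bases, 6.00% occur in transcripts of other genes, so a part of its reads could be counted elsewhere or not at all.

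Counts of 2 genes within a library can be compared without any scaling. The log2 ratio of Cd8a to Cd4 counts was 1.86, 2.09 and 1.63 in the Wt and 1.43, 2.38 and 2.27 in the KO DN3 libraries. In DN4 it was 2.42, 1.60, 3.53 and 2.08 in the Wt and 0.76, 2.34 and 1.67 in the KO DN4 libraries. Cd8a counts were above Cd4 counts in all 13 libraries, most so in the DN4 library of WT46 (11.6 Cd8a counts for each Cd4 count) and least in that of KO45 (1.69). The groups overlapped in each of the 4 comparisons. The mean was 2.41 ± 0.820 (SD, n = 4) in Wt DN4 and 1.59 ± 0.796 (SD, n = 3) in KO DN4, a difference of -0.82 (exact two-sided permutation test, p = 0.257, adjusted p = 0.686 over 8 tests). For this ratio the other 3 comparisons gave exact permutation p-values of 0.429, 0.600 and 0.700.

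The log2 ratio of Cd8b1 to Cd8a counts was 0.09, 0.19 and 0.08 in the Wt and -0.32, -0.21 and 0.30 in the KO DN3 libraries. In DN4 it was -0.56, -0.55, -0.62 and -0.02 in the Wt and -0.81, -0.58 and -0.48 in the KO libraries. Cd8a therefore rose more than Cd8b1 in 6 of 6 mice with both stages, and the DN4 library of WT48 alone kept nearly equal counts of both genes. The mean difference between the stages was -0.56 in Wt mice (exact two-sided permutation test, p = 0.0571) and -0.54 in KO mice (exact permutation p = 0.1, the smallest that 3 against 3 libraries allow), with an adjusted p of 0.400 for both in the exact permutation tests. The smallest p that 3 against 4 libraries allow is 0.0286.

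**Figure D2:**
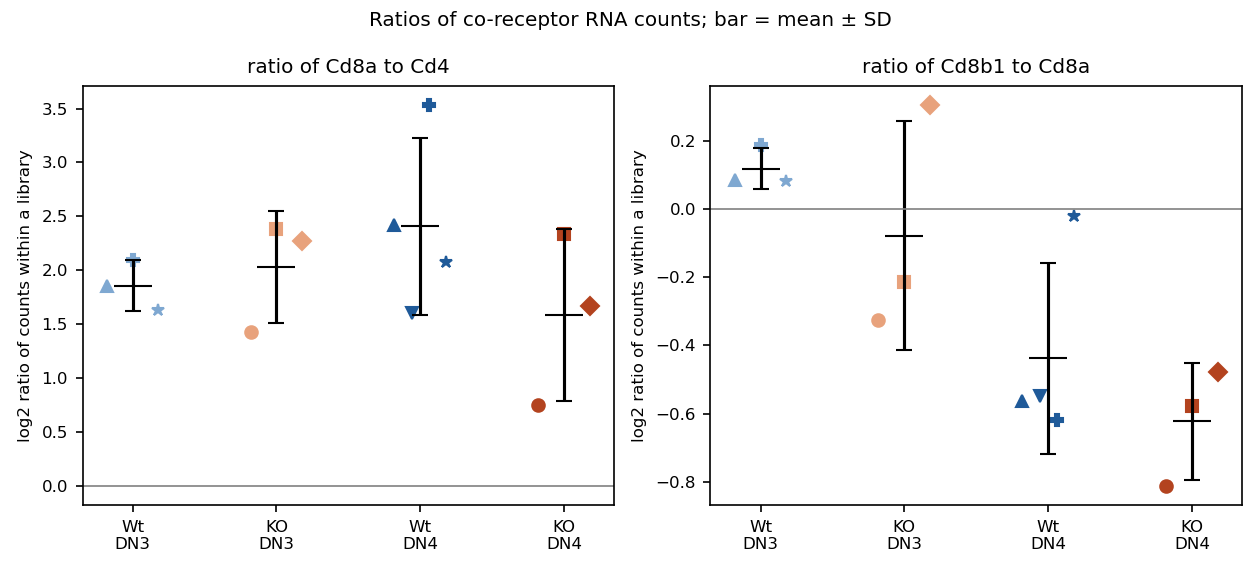
Log2 ratios of counts within each library, Cd8a to Cd4 on the left and Cd8b1 to Cd8a on the right, by group, with a symbol per mouse as in the plot of CPM by group (circle KO45, square KO49, diamond KO51, upward triangle WT05, downward triangle WT40, plus WT46, star WT48) and bars for the mean ± SD. The groups overlap for Cd8a to Cd4, and for Cd8b1 to Cd8a all DN4 libraries but that of WT48 lie below all DN3 libraries.

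Zbtb7b and Runx3 encode the transcription factors known for the choice between the CD4+ and CD8+ lineages. Zbtb7b (ENSMUSG00000028042.15, chromosome 3 from 89377644 to 89394776 on the minus strand, overlapped by Gm15417 on the other strand) had 0, 1 and 0 counts in the Wt and 9, 2 and 5 counts in the KO DN3 libraries. The DN4 libraries held 190, 76, 58 and 329 counts in the Wt and 412, 253 and 73 counts in the KO DN4 libraries. It was thus close to undetected in DN3, and present in all 7 DN4 libraries at 15.8, 7.41, 4.57 and 33.3 CPM in Wt and 29.5, 17.5 and 7.26 CPM in KO mice, a low level. Pooled over libraries, the ratio of DN4 to DN3 was 347 in Wt mice (95% exact interval 62.1 to 13724, from 653 against 1 count). In KO mice it was 35.8 (95% exact interval 21.9 to 62.9, from 738 against 16 counts). These intervals cover counting error only. Every DN3 library had fewer than 10 counts of it, so it passed the filter on low counts only through the DN4 libraries, and its call between the stages is given as a description. With a filter of at least 10 counts in every library it was not tested.

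Runx3 (ENSMUSG00000070691.10, chromosome 4 from 135120652 to 135177990 on the plus strand, overlapped by Gm16224 on the other strand) had 39.4, 52.4 and 66.6 CPM in the Wt and 70.7, 42.5 and 48.3 CPM in the KO DN3 libraries. The DN4 libraries had 86.7, 71.2, 68.7 and 119 CPM in the Wt and 65.3, 77.3 and 69.0 CPM in the KO libraries. WT48, the lowest DN4 library for the co-receptors, was the highest for Runx3, and KO45 was the lowest. The log2 fold change was 0.67 in Wt mice, where the groups did not overlap (standard error 0.239, adjusted p = 0.0766 in edgeR). It was 0.36 in KO mice, where they did (standard error 0.202, adjusted p = 0.265 in edgeR). When both libraries of each mouse were paired, by a block for the mouse, the Wt value was 0.75 and passed (adjusted p = 0.0230 in edgeR).

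Satb1 (ENSMUSG00000023927.15, chromosome 17 from 51736187 to 51833290 on the minus strand) had 732, 493 and 445 CPM in the Wt and 586, 532 and 506 CPM in the KO DN3 libraries. In DN4 it had 752, 1213, 977 and 529.7 CPM in the Wt and 1769.7, 910.4 and 979.8 CPM in the KO DN4 libraries. It was higher in DN4 in 6 of 6 mice, but in WT05 and WT48 by little. The Wt groups overlapped through the DN3 library of WT05, and the KO groups did not overlap. In KO mice it rose, with a log2 difference of 1.14 with a standard error of 0.246 and an adjusted p of 0.0156 in edgeR's quasi-likelihood test. The call was lost without the DN3 library of KO49 or KO51 (adjusted p = 0.0755 and 0.0741 in edgeR), with log2 fold changes of 1.12 and 1.08. Without the DN4 library of KO45 the KO log2 fold change was 0.75, with the call kept. In Wt mice the log2 fold change was 0.62 (standard error 0.295, adjusted p = 0.176 in edgeR). It was 0.86 without the DN3 library of WT05 (adjusted p = 0.0831 in edgeR). Predicted genes overlap Satb1 on both strands.

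Arpp21 (ENSMUSG00000032503.17, chromosome 9 from 112065091 to 112235938 on the minus strand) hosts Mir128-2 on its own strand and is overlapped by 2310075C17Rik and 2900079G21Rik on the other, and its counts do not measure the miRNA. It had 711, 538 and 466 CPM in the Wt and 581, 458 and 440.0 CPM in the KO DN3 libraries. At DN4 the gene had 178, 288, 265 and 148 CPM in the Wt and 447, 265 and 312 CPM in the KO libraries. It was lower in DN4 in 6 of 6 mice, with the stages apart in Wt mice and overlapping in KO mice through the DN4 library of KO45. It fell in Wt mice, with a log2 difference of -1.40 with a standard error of 0.253 and an adjusted p of 0.00553 in edgeR's quasi-likelihood test. In KO mice the value was -0.56 (standard error 0.207, adjusted p = 0.103 in edgeR), and with the mouse as a block -0.58, which passed (adjusted p = 0.00130 in edgeR).

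Themis (ENSMUSG00000049109.14, chromosome 10 from 28668360 to 28883818 on the plus strand, overlapped by Gm47834 and 4930519F09Rik on the other strand) had 282, 205 and 197 CPM in the Wt and 216, 253 and 249.9 CPM in the KO DN3 libraries. Its DN4 libraries held 194, 278, 208 and 129 CPM in the Wt and 324, 174 and 221 CPM in the KO DN4 libraries. The groups overlapped in every comparison, and it was higher in DN4 in 2 of 6 mice, KO45 and, by little, WT46. The log2 fold change was -0.20 in Wt (standard error 0.245, adjusted p = 0.616) and -0.03 in KO mice (standard error 0.206, adjusted p = 0.947, both in edgeR).

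Cd24a (ENSMUSG00000047139.8, chromosome 10 from 43578284 to 43584265 on the plus strand) had 376, 514 and 455 CPM in the Wt and 418, 529 and 477 CPM in the KO DN3 libraries. The DN4 values were 311, 329.6, 307 and 292 CPM in the Wt and 212, 297 and 257 CPM in the KO libraries. All 7 DN4 libraries lay below all 6 DN3 libraries, and the DN4 libraries were close to each other. It fell in KO mice, with a log2 difference of -0.92 with a standard error of 0.152 and an adjusted p of 0.00574, and in Wt mice, with a log2 difference of -0.56 with a standard error of 0.128 and an adjusted p of 0.0151, both in edgeR's quasi-likelihood test. The Wt call was lost with the mouse as a block (adjusted p = 0.0581 in edgeR), with library totals as the scaling (adjusted p = 0.491 in edgeR), and without the DN3 library of WT46 or WT48 (adjusted p = 0.0673 and 0.0563). The log2 fold changes were then -0.58, -0.41, -0.45 and -0.55, in that order, beside -0.56. Of its stretches of 50 bases, 2.75% occur in Gm6212.

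**Figure D3:**
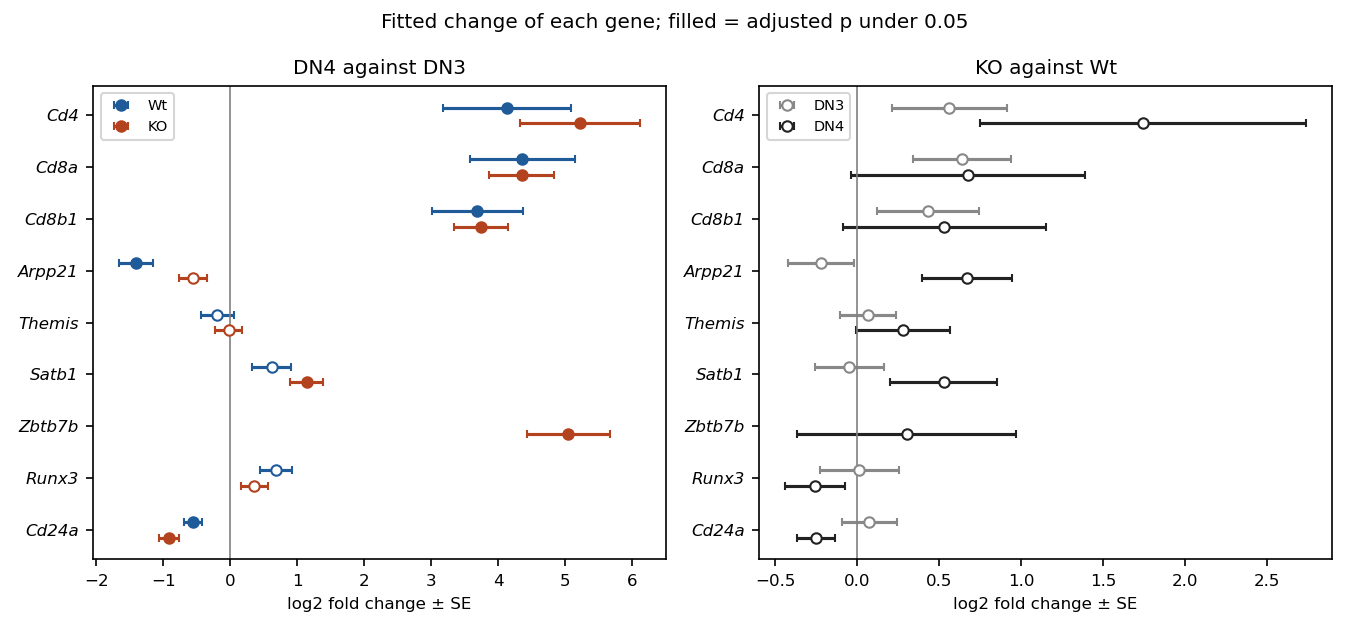
Log2 fold change of each gene with its standard error from edgeR, DN4 against DN3 on the left (Wt and KO mice) and KO against Wt on the right (DN3 and DN4), filled where the adjusted p was under 0.05. Zbtb7b is not drawn for Wt mice on the left or for DN3 on the right, where the Wt DN3 libraries held 0 or 1 count. Zbtb7b is drawn for KO mice on the left as a description. On the left the co-receptors lie at 3.69 to 5.22, and on the right 0 of the points drawn is filled.

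Levels were also divided by the annotated exon length of each gene, 19027 bases for Satb1, 17428 for Arpp21 and 11682 for Themis. It was 2580 bases for Cd24a and 1483 for Cd8b1. The lengths of the transcripts present were not measured, so the order of the genes below depends in part on these annotated lengths. Per kilobase of exon, Cd24a was the highest of the 9 in DN3. It stood at 174 ± 26.9 CPM per kb in Wt mice (SD, n = 3). In KO mice it stood at 184 ± 21.5 (SD, n = 3). Arpp21, Satb1 and Themis followed, and their group means lay between 19.5 and 32.8 CPM per kb. Cd4 stood at 1.28 ± 0.352 CPM per kb in Wt DN3 and Zbtb7b was the lowest. In DN4, Cd8b1 was the highest by its mean, at 187 ± 133 CPM per kb in Wt (SD, n = 4) and 264 ± 151 in KO mice (SD, n = 3). Cd24a followed at 120.1 ± 6.05 and Cd8a at 111 ± 83.6 in Wt mice, and these did not differ beyond their spread. In KO mice Cd8a, at 173 ± 120.3, stood above Cd24a, at 98.9 ± 16.5, by its mean. Cd4 reached 22.2 ± 26.5 CPM per kb in Wt and 72.0 ± 82.1 in KO DN4 libraries, and Zbtb7b, again the lowest, 2.73 ± 2.31 and 3.23 ± 1.99.

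The DN4 libraries differed from each other in these genes more than in most genes. Over the 7 DN4 libraries the coefficient of variation of the CPM was 132% for Cd4, 70.5% for Cd8a, 68.5% for Zbtb7b and 61.3% for Cd8b1. It was 38.6%, 35.8% and 29.8% for Satb1, Arpp21 and Themis. The median of the 9204 genes with at least 10 CPM on average in DN4 was 12.7%. Cd24a, at 13.9%, lay near that median, and Runx3 stood at 23.5%. In DN3 the coefficient of variation over 6 libraries was 34.0% for Cd4, 34.7% for Cd8a and 30.8% for Cd8b1.

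Ordered by Cd8a, the DN4 libraries were WT48, WT05, KO49, KO51, WT46, WT40 and KO45 from the lowest to the highest, with both genotypes mixed. Neighbours in this order rest on 1 library each, so their difference has no replicate error. Satb1 and Themis were highest in KO45 and next in WT40, and lowest in WT48, and Cd4 and Arpp21 had KO45 at the top and WT48 at the bottom too. The relations of log2 CPM to Cd8a over the 7 libraries were computed after the levels had been seen, 13 relations in all, with Benjamini-Hochberg adjustment over these. Cd8b1 followed Cd8a (Pearson's r = 0.99, exact permutation p = 0.000198, adjusted p = 0.00258, and Spearman's rho = 1, exact permutation p = 0.000397, adjusted p = 0.00516). So did Satb1 (Pearson's r = 0.97, exact permutation p = 0.000794, adjusted p = 0.00387, and Spearman's rho = 0.96, exact permutation p = 0.00278, adjusted p = 0.0181) and Themis (Pearson's r = 0.95, exact permutation p = 0.00119, adjusted p = 0.00387, and Spearman's rho = 0.93, exact permutation p = 0.00675, adjusted p = 0.0292).

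Cd4 also followed Cd8a (Pearson's r = 0.89, exact permutation p = 0.00913, adjusted p = 0.0198, and Spearman's rho = 0.89, exact permutation p = 0.0123, adjusted p = 0.0320), with WT46 low in Cd4 for its Cd8a. Arpp21 did so by Pearson's r but not by rank after adjustment (Pearson's r = 0.92, exact permutation p = 0.00357, adjusted p = 0.00929, and Spearman's rho = 0.82, exact permutation p = 0.0341, adjusted p = 0.0739). Runx3 went against Cd8a (Pearson's r = -0.95, exact permutation p = 0.000992, adjusted p = 0.00387, and Spearman's rho = -0.89, exact permutation p = 0.0123, adjusted p = 0.0320). Zbtb7b and Cd24a showed no relation to Cd8a that passed (exact permutation p = 0.387 and 0.392, r = -0.40 and -0.38, Spearman's rho = -0.32 and -0.11). Without KO45 and WT48, the libraries farthest from the median of Cd8a, Pearson's r over the other 5 was 0.997 for Cd8b1, 0.96 for Satb1, 0.82 for Themis, 0.73 for Arpp21, 0.70 for Cd4, -0.83 for Runx3, -0.77 for Zbtb7b and 0.23 for Cd24a, so that the weak values of the last 2 rest in part on these libraries, and that of Cd24a changed sign. Each genotype has fewer than 6 DN4 libraries, so no value was computed within a genotype. In bulk RNA, fewer cells that express a gene and less of its RNA per cell cannot be told apart.

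**Figure D4:**
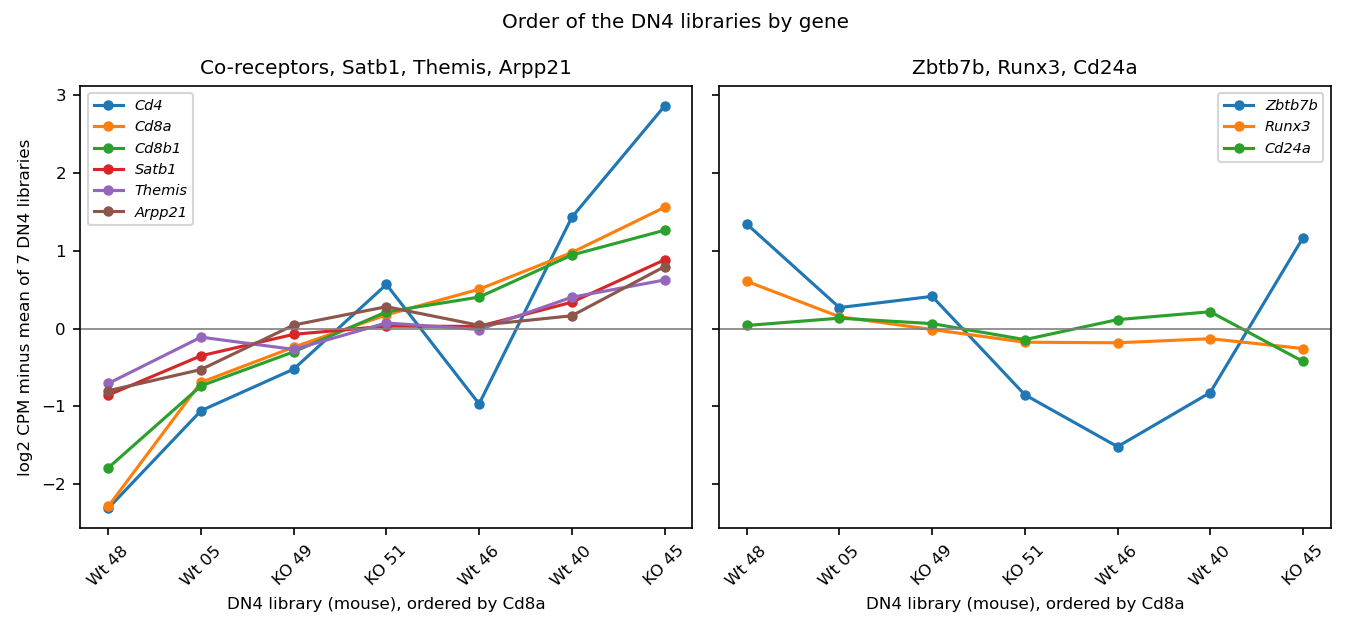
Log2 CPM minus the mean of the 7 DN4 libraries (y axis) for each DN4 library, ordered along the x axis from the lowest to the highest Cd8a. On the left, Cd4, Cd8a, Cd8b1, Satb1, Themis and Arpp21 run from WT48 at the bottom to KO45 at the top, and on the right Runx3 declines from WT48 to KO45 while Zbtb7b is high in both.

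Among genes outside the list, those with at least 10 CPM on average in DN4 were ranked by the Pearson correlation of their log2 CPM with the mean log2 CPM of Cd4, Cd8a and Cd8b1 over the 7 DN4 libraries. Of 9204 genes, the 5 most alike were Kcnh2 (r = 0.99, from 16.3 CPM in WT48 to 53.6 CPM in KO45), Actn1 (0.99, 186 to 269 CPM), Trbv13-2 (0.99, 49.9 to 105 CPM), Ldhb (0.99, 50.7 to 149 CPM) and Cnot8 (0.99, 104 to 133 CPM), each lowest in WT48 and highest in KO45. Kcnh2 encodes a potassium channel, Actn1 an actin crosslinker, Trbv13-2 is a variable segment of the T cell receptor β chain, Ldhb encodes a subunit of lactate dehydrogenase and Cnot8 a subunit of a deadenylase. By the same measure Satb1 stood at 0.99, above 99.9% of these genes, Themis at 0.98 and Arpp21 at 0.94, and Runx3 at -0.89, with 1.03% of the genes below it. With 7 libraries that share their scaling, these are descriptions.

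The 6 B cell markers, with Cd79a among them, summed to 20.9 to 54.6 CPM in the DN3 libraries and 231 to 2945 CPM in the DN4 libraries. Of the 6, 3 also passed the filter on low counts in the DN3 libraries alone, and these 3 rose from DN3 to DN4 in both genotypes in edgeR's test. The other 3 entered the test only through the DN4 libraries. In DN4 the sum was 1551, 322, 431 and 2945 CPM in WT05, WT40, WT46 and WT48, and 1013, 1753 and 231 CPM in KO45, KO49 and KO51. The library lowest in the co-receptors, WT48, was the highest in B cell markers, but KO45, the highest in the co-receptors, lay in the middle. Over the 7 libraries the relation of Cd8a to the sum did not pass (Pearson's r = -0.65, exact permutation p = 0.111, adjusted p = 0.161, and Spearman's rho = -0.64, exact permutation p = 0.139, adjusted p = 0.201). Without KO45 and WT48 r was -0.78 over the other 5.

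Zbtb7b went with the B cell markers, as Runx3 did by Pearson's r, before adjustment but not after it. For Zbtb7b r was 0.84 (exact permutation p = 0.0292, adjusted p = 0.0542) and Spearman's rho 0.79 (exact permutation p = 0.0480, adjusted p = 0.0892), and r = 0.80 without KO51 and WT46. For Runx3 r was 0.73 (exact permutation p = 0.0355, adjusted p = 0.0577) and rho 0.64 (exact permutation p = 0.139, adjusted p = 0.201), and r = 0.38 without WT05 and WT48, so that the relation of Runx3 rests on these libraries. Cd24a showed no relation to the sum that passed over the 7 libraries (r = -0.000167, Spearman's rho = -0.07, exact permutation p = 1 and 0.906), but r was -0.82 without KO45 and KO51, so that its value rests on these libraries. With the 3 DN4 libraries highest in B cell markers (WT48, KO49 and WT05) left out, a choice made after seeing the data, 5 of 9 genes passed from DN3 to DN4 in Wt mice, Cd24a being lost (adjusted p = 0.104 in edgeR) with a log2 fold change of -0.52 beside -0.56, and 6 of 9 in KO mice. Over all genes 1766 of 12848 then passed in Wt and 1522 of 12797 in KO mice, fewer than the 2903 and 2338 with all libraries. The Wt log2 fold changes of Cd4, Cd8a and Cd8b1 were then 4.86, 5.05 and 4.34, but the Wt DN4 libraries left are those of the male mice WT40 and WT46, so B cell markers and sex cannot be told apart in this move. Leaving out the male mice moved the same values the other way, as given above. The part of B cell RNA in the order of the DN4 libraries was not tested beyond these values.

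**Figure D5:**
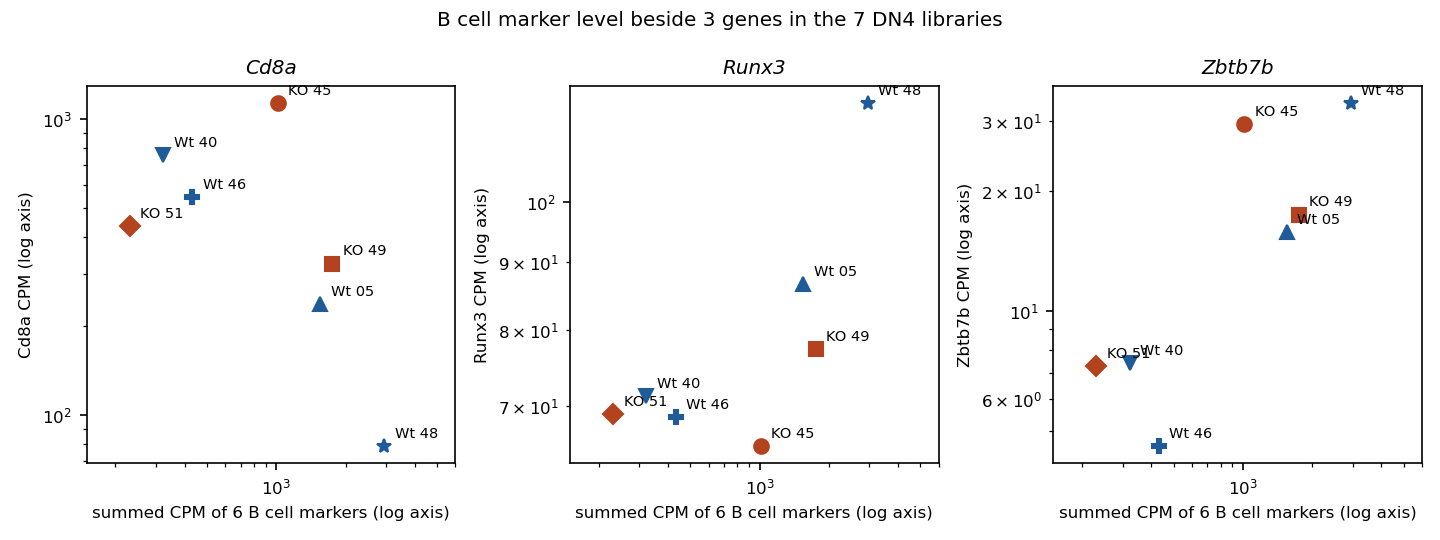
Level of Cd8a, Runx3 and Zbtb7b (y axes, CPM) against the summed CPM of 6 B cell markers (x axes), all on log axes, in the 7 DN4 libraries, blue for Wt and red for KO mice. WT48 is the highest in B cell markers, in Runx3 and in Zbtb7b and the lowest in Cd8a, and KO45 combines the highest Cd8a with a middle level of B cell markers.

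Markers of mature single positive T cells also differed between the stages. Of 8, 5 also passed the filter on low counts in the DN3 libraries alone, and of these 3 rose and 0 fell in each genotype, where 13.4% of all genes were called higher and 9.43% lower in Wt and 11.2% and 7.34% in KO mice. Ccr7, a chemokine receptor, rose from 3.54 ± 1.52 to 84.5 ± 9.51 CPM in Wt (SD, n = 3 and 4) and from 3.51 ± 1.31 to 53.6 ± 15.1 CPM in KO mice (SD, n = 3 each). S1pr1, the receptor for thymic exit, which passed the filter only through DN4, went from 0.904 ± 0.598 to 117 ± 46.1 CPM in Wt mice, and its regulator Klf2 from 3.74 ± 0.790 to 121 ± 53.9 CPM in Wt mice. The sum of the 8 was highest in the DN4 libraries of WT48 (1585 CPM) and WT05 (1269.6 CPM), the libraries lowest in Cd8a. Of 6 gamma delta T cell markers, 5 passed that filter in DN3 alone, of which 3 rose and 2 fell in Wt, and 1 rose and 2 fell in KO mice, and the sum of the 6 was highest in the same libraries, 2070.4 CPM in WT48 and 1394 CPM in WT05, against 708 to 1052 CPM in the other 5 DN4 libraries and 945 to 1783 CPM in DN3. Of 6 myeloid markers 3 were tested in Wt, of which 1 rose and 1 fell, and 4 in KO mice, of which 0 rose and 1 fell, and their sums were 16.1 to 26.2 CPM in DN4. Erythroid markers, of which 1 of 5 was tested in Wt and 0 in KO mice, summed to 0.995 to 5.77 CPM in DN4. Of 4 plasmacytoid dendritic cell markers, Siglech and Klk1 had 0 counts in all DN3 libraries. Pacsin1 was at 1.40 ± 0.547 CPM in DN3 and 37.9 ± 7.58 CPM in DN4 in Wt and at 1.13 ± 0.764 and 31.6 ± 9.14 CPM in KO mice, and passed the filter only through DN4. Bst2 had log2 fold changes of -0.71 in Wt and -0.76 in KO mice (adjusted p = 0.0648 and 0.00609 in edgeR), of which the second passed. The sum of the 4 was 62.5 to 126 CPM in DN3 and 91.1 to 111 CPM in DN4. Of 6 NK and innate lymphoid markers, 5 were tested, of which 3 entered only through DN4 and the other 2 did not pass. Klrd1 and Klrb1c were at 0.110 CPM or less in every DN3 library and reached 16.7 and 4.49 CPM in DN4. The part of mature and gamma delta T cells in the values above was not tested.

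The other genes of these stages were taken from lists, and their counts stand against 13.4% of all genes called higher and 9.43% lower in DN4 in Wt mice, and 11.2% and 7.34% in KO mice. Of 15 other DP stage genes, 10 rose and 1 fell from DN3 to DN4 in each genotype, 9 of those that rose being shared, with a median log2 fold change of 1.70 in Wt and 1.56 in KO mice. Trac, the constant segment of the T cell receptor α chain, rose from 6.50 ± 0.661 to 189 ± 92.9 CPM in Wt mice, a log2 difference of 4.83 with a standard error of 0.505 and an adjusted p of 0.000435 in edgeR. The adhesion receptor Cd2 rose by a log2 fold change of 4.17 and the inhibitory receptor Cd5 by 2.75 in Wt mice. The gene that fell was Dntt, which encodes terminal transferase, by 1.15 on the log2 scale in Wt mice (adjusted p = 0.0134 in edgeR); it is named after its values were seen.

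Of 14 regulators of the co-receptors and of lineage, 3 rose and 4 fell in Wt and 4 rose and 2 fell in KO mice, with medians of 0.07 and -0.11. Ikzf3, which encodes Aiolos, rose from 58.3 ± 25.9 to 334 ± 63.8 CPM in Wt mice. Runx1, the RUNX factor of earlier stages, fell from 289.6 ± 87.2 to 107 ± 6.21 CPM in Wt and from 255 ± 18.5 to 114 ± 10.6 CPM in KO mice (adjusted p = 0.00107 and 0.000974 in edgeR). Myb and Patz1, the latter also known as MAZR, a regulator of Cd8, fell, with log2 fold changes of -1.09 and -1.04 in Wt mice. Of 14 signalling partners of the co-receptors and Themis, 4 rose and 1 fell in Wt and 3 rose and 1 fell in KO mice, with medians of 0.10 and 0.12, and their share of lower calls lay near that of all genes. The kinase gene Zap70 rose by 1.22, the phosphatase Ptpn6, a partner of Themis, by 1.12, and Cd3g, a chain of the CD3 complex, went by -0.84 on the log2 scale in Wt mice, all of these passing.

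Of 8 DN3 stage genes, 5 fell in Wt and 6 in KO mice and 0 rose. Besides Il2ra, the receptor gene Notch3 fell from 476 ± 6.42 to 52.7 ± 4.08 CPM in Wt and from 439 ± 151 to 105 ± 35.7 CPM in KO mice, and Ptcra, the pre-T cell receptor α chain, fell with log2 fold changes of -2.13 and -1.65. Of 8 proliferation genes, 0 passed in either genotype in edgeR, with 0 in Wt and 1 in KO mice at an unadjusted p under 0.05. Their sum in Wt DN3 was 4015 CPM in WT05, the library rich in counts akin to ribosomal RNA. It was 1470 and 1705 CPM in WT46 and WT48, beside 1402 to 2443 CPM in Wt DN4. In KO mice the sum was 1382 to 2203 CPM in DN3 and 2134 to 2897 CPM in DN4. The relation of these genes to Cd8a over the DN4 libraries did not pass (Pearson's r = 0.63, exact permutation p = 0.137, adjusted p = 0.178, and Spearman's rho = 0.39, exact permutation p = 0.396, adjusted p = 0.514).

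Between the genotypes, 0 of the 9 genes passed in DN4, where 0.0535% of 13084 genes did, and 0 of the 8 tested in DN3, where 0% of 12105 genes did. Zbtb7b had too few counts to be tested in DN3. In DN4 Arpp21 was the only one of the 9 with an unadjusted p under 0.05, and in DN3 none was, and DESeq2 and limma-voom also called 0 of the 9 genes in both stages. In DN4 the log2 fold changes of KO against Wt were positive for 7 genes and negative for Runx3 and Cd24a, with the groups overlapping for all 9, where 7.06% of the genes tested did not overlap. Cd4 stood at 290.3 ± 331 CPM (SD, n = 3) in KO and 89.6 ± 107 CPM (SD, n = 4) in Wt mice, a log2 difference of 1.74 with a standard error of 0.994 and an adjusted p of 0.887 in edgeR. Without the library of KO45 the log2 fold change of Cd4 was 0.18, and without that of WT40 3.03. Cd8a and Cd8b1 had log2 fold changes of 0.68 and 0.53 (standard errors 0.713 and 0.620), which became -0.08 and -0.05 without KO45.

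Arpp21 stood at 342 ± 94.1 CPM (SD, n = 3) in KO and 219.7 ± 67.4 CPM (SD, n = 4) in Wt DN4 libraries, a log2 difference of 0.67 with a standard error of 0.276 and an adjusted p of 0.883 in edgeR's quasi-likelihood test, with an unadjusted p of 0.0401. Cd24a stood at 255 ± 42.5 CPM (SD, n = 3) in KO and 310.0 ± 15.6 CPM (SD, n = 4) in Wt DN4 libraries, a log2 difference of -0.25 with a standard error of 0.118 and an adjusted p of 0.883 by the same test. Single libraries left out gave 0.41 to 0.84 for Arpp21 and -0.35 to -0.14 for Cd24a. With the B cell marker sum as a covariate, added after seeing the data, 0 of the 9 passed, and Cd4 and Arpp21 had log2 fold changes of 2.23 and 0.68 (adjusted p = 0.489 and 0.339 in edgeR). Leaving out the 2 male mice, another choice made after seeing the data, also left 0 of the 9 past the threshold in either stage. Of the Wt calls between the stages it ended that of Cd24a (adjusted p = 0.243 in edgeR). The log2 fold change of Cd24a was then -0.49, beside -0.56 with all libraries. The smaller changes of the co-receptors are given above.

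In DN3, the 3 KO libraries lay above the 3 Wt libraries for Cd8a and, at 9 counts or fewer, for Zbtb7b, so 2 of 9 genes, or 1 of the 8 tested, did not overlap, where 6.43% of the genes tested did not. Cd8a stood at 30.4 ± 6.99 CPM (SD, n = 3) in KO and 19.5 ± 7.07 CPM (SD, n = 3) in Wt DN3 libraries, a log2 difference of 0.64 with a standard error of 0.299 and an adjusted p of 1 in edgeR's quasi-likelihood test. Zbtb7b had 16 counts in all in the KO and 1 in the Wt DN3 libraries, a ratio of 12.8 in CPM (95% exact interval 1.98 to 535, counting error only). The difference between the genotypes in the change from DN3 to DN4 was tested as an interaction over all 13 libraries, which 0 of the 9 genes passed (0% of 13361 genes did), and neither DESeq2 nor limma-voom called any of them. The interaction was 0.85 for Arpp21 (standard error 0.360, unadjusted p = 0.0347, adjusted p = 1 in edgeR), the only one of the 9 with an unadjusted p under 0.05. The call of Arpp21 in Wt and of Satb1 in KO mice alone is thus not shown to differ between the genotypes.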

How the data were processed

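RNA of freshly sorted thymocytes was isolated, and stranded mRNA libraries were made and sequenced by the authors, 1 library per mouse and stage. Per the paper's methods and the submitters' processing notes, reads were trimmed with Cutadapt, mapped with STAR (build mm10) and counted with featureCounts. The authors deposited whole-number counts per gene, not normalized. Tool versions, annotation release and strand setting are not given in the sources used here. Without the strand setting, reads of a gene and of an overlapping antisense gene may not be separated. Identifiers were matched to GENCODE M21 on GRCm38 without version (47310 of 47937). Promoter sequences came from RefSeq (GRCm38.p6), where 6 of the 9 genes matched.

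The quasi-likelihood test of edgeR 4.0.16 (R 4.3.3) was run on the groups of each comparison, and for the interaction on all 13 libraries, with TMM scaling, on genes kept by filterByExpr (minimum count 10). Adjustment followed Benjamini-Hochberg, with a threshold of 0.05 on the adjusted p-value. Ratios of counts had 0.5 added to each count and were compared by exact permutation over libraries. Mice are the replicates. Scripts were tested on simulated data. Libraries held 5926848 to 14148661 counts, which bounds the precision of low genes such as Zbtb7b.

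The mouse numbers of the labels were taken to pair the libraries. Deviations from the group means of the DN3 and DN4 libraries of the same mouse correlated over 13361 genes with 0.123 (WT46) to 0.495 (KO45). Libraries of different mice were not compared in this way, so these values have no baseline. No 2 libraries of a group were duplicates (smallest chi-squared per degree of freedom 5.85).

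The 9 genes, the other lists and the tests were chosen with earlier results of these data known. All 9 genes are named, and of each other list up to 4 called genes with the largest change from DN3 to DN4 in Wt mice, with Opa1 and Il2ra as checks; some genes that this rule names are not reported here. Alternatives were DESeq2's size factors and library totals, 2 other filters, DESeq2 1.42.0, limma-voom (limma 3.58.1), a joint fit of the 13 libraries, single libraries left out, a block for the mouse, and thresholds of 0.1 or of 0.05 with a log2 fold change of at least 1. Chosen after seeing the data were the relations to Cd8a and to B cell markers, the covariate, and leaving out 3 DN4 libraries or the male mice.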

Additional observations from a re-analysis of the deposited data

Results flagged for a closer look

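Of 11 values checked in the 4 Wt DN4 libraries, the 9 genes and both ratios, 2 had a library that stood far from the others by Dixon's test at the 95% level, which chance flags in about 5% of groups of 4. Genes were taken as CPM and ratios as log2 values, and such a flag can depend on the scale. Cd4 was at 248.6 CPM in the DN4 library of WT40, against 18.5 to 47.0 CPM in those of WT05, WT46 and WT48. The log2 ratio of Cd8b1 to Cd8a was -0.0206 in the DN4 library of WT48, against -0.62 to -0.55 in the other 3.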

How the results depend on the processing

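The count of genes called among the 9 stayed within 4 to 6 in Wt and 5 to 7 in KO mice from DN3 to DN4 with each library left out, and was 0 between the genotypes and for the interaction under every alternative run. Zbtb7b was not tested with at least 10 counts in every library. Library totals moved the median log2 fold change of all genes to 0.16 from DN3 to DN4 in Wt mice. They moved it to 0.23 between the genotypes in DN3 and to -0.20 in the interaction. All of these comparisons hold the DN3 library of WT05, whose part in the move was not tested. Of the Wt calls over all genes, 77.8% were then higher in DN4, in place of 58.8% (75.6% without the male mice). Over all genes and at an adjusted p of 0.05, the calls from DN3 to DN4 were 1723 to 3559 in Wt (1782 with library totals, 2903 as reported) and 1407 to 4499 in KO mice (4499 with the mouse as a block, 2338 as reported), and between the genotypes in DN4 0 to 51 (51 with DESeq2, 23 with the B cell covariate, 7 as reported). The other thresholds gave up to 3926 in Wt (adjusted p of 0.1) and down to 1385 in KO mice (a log2 fold change of at least 1 asked as well). Besides the calls named above, the mouse as a replicate block changed no call of the 9 genes. DESeq2 and all libraries in one fit also called Runx3 in Wt mice (adjusted p = 0.0306 and 0.0399), as edgeR did in KO mice without the DN3 library of KO45 (adjusted p = 0.0263), and Arpp21 passed in KO mice with no filter beyond 1 count (adjusted p = 0.0429) or without the DN4 library of KO45 (adjusted p = 0.0172), all but the first in edgeR.

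Values that changed sign belonged to genes that did not pass. Themis from DN3 to DN4 became 0.055 with library totals and 0.072 without the 3 libraries highest in B cell markers in Wt mice, and 0.00015 with all libraries in one fit, 0.16 without those 3 libraries and -0.33 to 0.16 with single libraries left out in KO mice. Between the genotypes in DN4, Zbtb7b became -0.37 without male mice and ranged from -0.27 to 0.99 with single libraries left out, Cd8a from -0.078 to 1.16, Cd8b1 from -0.054 to 1.01 and Themis from -0.015 to 0.48. In DN3, Arpp21 became 0.092 and Satb1 0.28 with library totals, Runx3 -0.026 with limma-voom and Themis -0.0057 without male mice, and single libraries left out gave -0.027 to 0.25 for Themis, -0.18 to 0.21 for Satb1, -0.24 to 0.22 for Runx3 and -0.032 to 0.18 for Cd24a. In the interaction, Cd8b1 became -0.16 and Themis -0.078 with library totals, Cd8b1 -0.31 without the 3 libraries, and Cd8a 0.0040 with DESeq2, 0.16 with limma-voom and 0.58 with the mouse as a replicate block. Single libraries left out gave -0.43 to 2.39 for Cd4, -0.74 to 0.48 for Cd8a, -0.51 to 0.54 for Cd8b1 and -0.11 to 0.36 for Themis. For the log2 ratio of Cd8a to Cd4 between the genotypes in DN3 they gave -0.0068 to 0.47. The replicate block for the ratios, exact sign flips within 3 mice, cannot give a p under 0.25, and moved the mean change of Cd8a to Cd4 in Wt mice from 0.55 to 0.82 and that of Cd8b1 to Cd8a from -0.56 to -0.52. The cause of these changes was not tested.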
